A study of Mus musculus with 8 samples.

Results

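High-density neutrophils of H2R deficient mice were compared with those of wild-type mice across all genes. The comparison rests on 4 of the 8 samples of the series, chosen by their labels: H2R deficient high-density libraries 1 and 2, and wild-type high-density libraries 2 and 4. All 4 came from C57BL/6 mice aged 2 months, and the neutrophils were taken from peritoneal cells elicited with casein, an irritant that draws neutrophils into the cavity. The other 4 samples are low-density neutrophils of the same genotypes, also 2 libraries each. H2R is the histamine H2 receptor, encoded by Hrh2. The labels name the deficient genotype without saying which part of the gene is missing or in which cells, and they leave unsaid whether each library is a separate animal. The p-values therefore speak to the spread among the libraries at hand, part or all of which may be technical.

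Histamine is made from histidine by histidine decarboxylase, acts through a family of G protein-coupled receptors and is inactivated by methylation or oxidation. The H2 receptor couples to the stimulatory G protein, which raises cyclic AMP through adenylyl cyclase. In neutrophils cyclic AMP is generally known to restrain the oxidative burst, degranulation and mediator release. Density separates neutrophils on a gradient, with normal mature neutrophils in the dense fraction and activated, degranulated or immature cells often found in the light fraction.

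The high-density libraries held 20991468 to 22190916 counts over all genes. At that depth a count of 3 corresponds to 0.135 to 0.143 CPM (counts scaled to a common library size), which is the level a count of 0 allows, for counting error only. The libraries of a genotype correlated at r = 0.991 (H2R deficient) and r = 0.986 (wild type) in log2 CPM across genes, which are not independent replicates, and differed beyond sampling noise (chi-square per degree of freedom 50.4 and 55.4). The neutrophil label was borne out by defining markers. S100a8 held 11610 to 13040 and S100a9 21020 to 23760 CPM of total counts in these libraries, with Csf3r at 1682 to 3917, Cxcr2 at 1540 to 2036 and Ly6g at 139 to 197 CPM.

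High-density libraries of H2R deficient mice held less RNA of 28 genes and more of 3, out of 14909 tested. With the high-density libraries fitted alone, 0 genes passed. Summed markers of other cell types, macrophages and eosinophils among them, also differed in these bulk libraries. The part of such cells in the 28 and 3 was not tested. The genes that fell included Fn1 and Vcan, which encode extracellular matrix proteins, Apoe and its endocytic receptor Lrp1, and the integrin subunits Itga4 and Itgb8. Falls ran from 2.55-fold to 5.13-fold. Among the genes that rose were Rhou, a small GTPase, by 2.98-fold, and Styk1, a kinase-like receptor protein, by 8.14-fold. Most neutrophil genes of high count, among them S100a8 and S100a9, did not pass the test.

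The 31 genes are 0.208% of those tested, at an adjusted p under 0.05 in edgeR's quasi-likelihood test. The 28 that fell are 0.188% and the 3 that rose 0.0201% of all genes. Their log2 fold changes, H2R deficient minus wild type, ran from -2.36 to -1.35 among the falls (median -1.71), beside a median of -0.05 and a median absolute value of 0.39 over all genes. Adjusted p-values of the 31 lay between 0.0262 and 0.0485, so all of them sit close to the threshold. Without the adjustment, 1602 genes lay at a p under 0.05 on the lower side (10.7%) and 1186 on the higher side (7.95%). The 2 groups of libraries did not overlap in 3844 genes lower (25.8%) and 3142 higher (21.1%) in H2R deficient libraries. All 31 genes, picked by low p from the same values, were among them.

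How many genes passed depended on single libraries. Among the high-density libraries, 0 genes passed when H2R deficient library 2 was left out (2713 at an unadjusted p under 0.05), 1 without H2R deficient library 1, 9 without wild-type library 4 and 40 without wild-type library 2. Of the 31 genes, 0, 3 and 13 were among the 1, 9 and 40, so most of those genes are other ones. Among the low-density libraries, which lend their spread to the fit, 0 passed without H2R deficient library 2 or without wild-type library 4 (2422 and 2658 at an unadjusted p under 0.05), 7 without H2R deficient library 1 (6 of them among the 31) and 19 without wild-type library 2 (17 of them). With the 4 high-density libraries fitted alone 0 passed (1973 at an unadjusted p under 0.05), limma-voom called 2, both among the 31, and DESeq2 called 677 (4.54% of genes), the 31 included. All 31 kept their direction in each of these fits. The fits reuse the libraries from which the 31 were picked by low p, so this is no independent support.

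**Figure D1:**
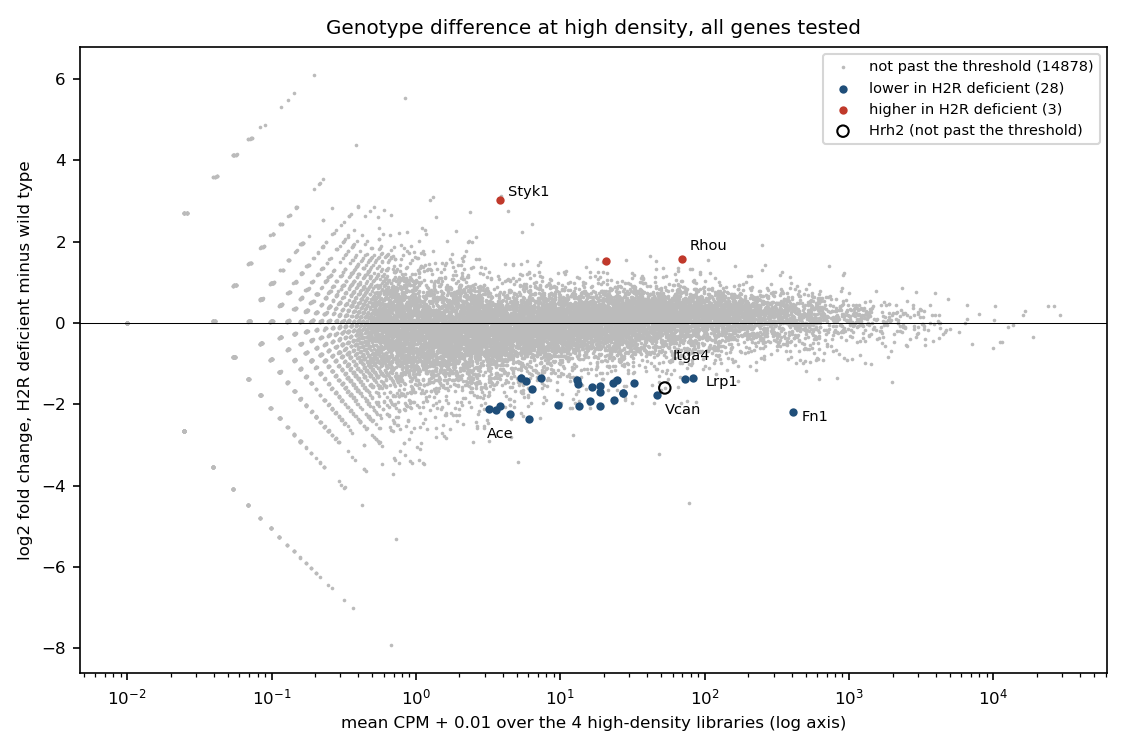
Log2 fold change (H2R deficient minus wild type, vertical axis) against mean CPM plus 0.01 over the 4 high-density libraries (log axis) for the 14909 genes tested. The 28 genes that fell (blue) lie between -2.36 and -1.35 and the 3 that rose (red) reach 3.02, while Hrh2 (open circle) lies at -1.60 and did not pass.

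The receptor gene itself was examined first. Hrh2 (ENSMUSG00000034987; GRCm38 chromosome 13, 54192129 to 54236180, plus strand) held 35.0 and 17.6 CPM in the H2R deficient libraries and 118 and 41.3 CPM in the wild-type libraries, scaled by TMM like all single-gene CPM values from here on. Both deficient libraries lay below both wild-type libraries, and the wild-type libraries differed by more than 2-fold from each other. The log2 fold change was -1.60 (SE 0.55, adjusted p = 0.192) and did not pass. It ran from -2.19 to -0.65 over the alternative fits and passed in DESeq2 alone (adjusted p = 0.0160). Since the missing part of the gene is not given, reads left on Hrh2 do not check the labels.

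Of 11 genes of histamine synthesis, transport, breakdown and reception, 5 passed the filter on low counts, Hrh2 included, and 0 passed the test. Hdc, the enzyme that makes histamine, held 4706 and 6013 CPM in the H2R deficient libraries against 6679 and 5767 CPM in wild type, and these values overlapped (log2 fold change -0.22, SE 0.30, adjusted p = 0.736). Hnmt, the methyltransferase that inactivates histamine, was at 25.8 and 21.4 against 21.8 and 13.5 CPM (0.42, adjusted p = 0.392). Slc18a2, the vesicular transporter that loads histamine, was at 9.29 and 9.51 against 5.19 and 7.08 CPM (0.61, adjusted p = 0.255). Aldh7a1, an aldehyde dehydrogenase, differed by -0.14 (adjusted p = 0.895), and its sign turned without H2R deficient library 2 (0.09) or wild-type library 4 (0.39).

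Genes near Hrh2 on chromosome 13 were counted because a targeted locus can carry flanking sequence of another strain. Of 126 tested genes within 10 Mb of Hrh2, 0 passed, beside 0.208% of all genes. In the window 30 (23.8%) had an unadjusted p under 0.05, beside 2788 of all 14909 genes (10.7% lower and 7.95% higher). Single chromosomes had 14.3% to 21.5%, but they hold more genes than the window, whose share is less certain. Whether the window differs from other genes was not tested. The lowest adjusted p there was 0.0550, of Rnf144b, a ubiquitin ligase (log2 fold change -1.45). DESeq2 called 10 genes of the window (7.94%, beside 4.54% of all genes), and edgeR without the filter on low counts called 12 of 208 (5.77%, beside 3.90% of all genes).

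Vcan (chromosome 13, 89655312 to 89742509), the matrix proteoglycan versican, had the lowest adjusted p of all genes tested. It stood at 20.2 and 21.9 CPM in H2R deficient libraries and at 77.2 and 67.3 CPM in wild-type libraries, a 3.43-fold fall (log2 fold change -1.78, SE 0.17, adjusted p = 0.0262). Each genotype's libraries lay close together. Fn1, fibronectin (chromosome 1, 71585520 to 71653200), held 111 and 182 CPM against 652 and 698 CPM and fell 4.60-fold (log2 -2.20, SE 0.25, adjusted p = 0.0374). It was the 1 gene past the threshold with a mean of at least 100 CPM over the 4 libraries. Itga4, the alpha chain of an integrin that binds fibronectin and VCAM-1, stood at 39.7 and 41.0 against 124 and 86.5 CPM (log2 -1.38, adjusted p = 0.0442). Itgb8, the beta chain of an integrin that activates latent TGF-beta, was far lower in level, with 1.11 and 1.53 against 5.19 and 6.38 CPM (log2 -2.13, adjusted p = 0.0374). Of 14 measured integrin and selectin pathway genes, Itga4 alone passed, and the list's median was 0.02, a sign that turned with scaling by total counts and without wild-type library 4. Dse, an enzyme that modifies the dermatan sulfate chains of proteoglycans, and Sh3pxd2b, a scaffold protein of podosomes, fell as well (log2 -1.61 and -1.39).

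**Figure D2:**
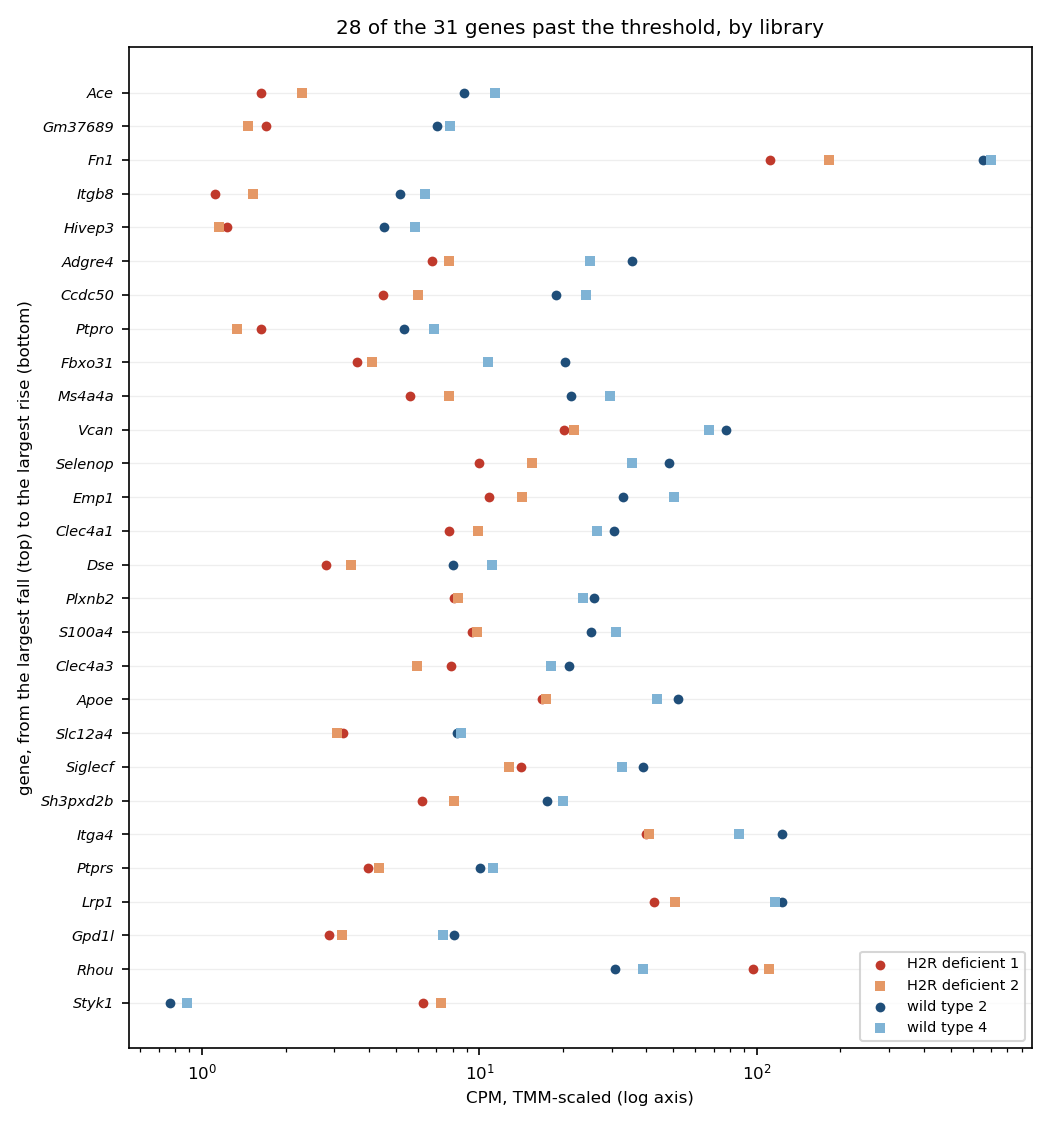
CPM (log axis) of 28 of the 31 genes past the threshold in H2R deficient libraries 1 and 2 (red and orange) and wild-type libraries 2 and 4 (dark and light blue), ordered by log2 fold change. In each row both libraries of one genotype lie on one side of both libraries of the other, as in 46.9% of all genes tested. The genes were picked by low p from these same values.

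Several other genes that fell are known from monocytes and macrophages, picked here from the genes past the threshold. Apoe, a lipid-carrying apolipoprotein, held 16.9 and 17.4 against 52.1 and 43.5 CPM (log2 -1.48, SE 0.19, adjusted p = 0.0374). Lrp1, which takes up Apoe-bearing lipoproteins and many other ligands, held 42.8 and 50.9 against 123 and 116 CPM (log2 -1.35, adjusted p = 0.0374). None of these values overlapped between genotypes, as in all 31 genes past the threshold. Ace, the angiotensin-converting enzyme, which also marks nonclassical monocytes, showed the largest fall among the 31 genes past the threshold, from 8.78 and 11.4 CPM to 1.64 and 2.30 CPM (log2 -2.36, SE 0.29, adjusted p = 0.0374). Ms4a4a, a tetraspan protein of macrophages (log2 -1.93), Adgre4, an adhesion receptor of myeloid cells (-2.05), and Selenop, the selenium carrier (-1.73), fell as well. The C-type lectin receptors Clec4a1 (-1.69) and Clec4a3 (-1.50) fell too. Clec4a and Ms4a4 genes have close relatives, and reads shared between copies could have been split in counting.

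Marker lists of other cells in the cavity gave the wider picture. Of 17 macrophage markers, 2 fell, Apoe among them, and 0 rose, beside 0.188% and 0.0201% of all genes. A negative log2 fold change was found in 16, beside 53.1% of all genes, and the median was -1.48. Wild-type library 4 was the highest library in 13 of the 17. Without it 14 were negative and the median was -1.27, and without wild-type library 2 the median was -1.895. Just outside the threshold lay Mrc1, the mannose receptor, at 10.2 and 14.4 against 34.0 and 53.9 CPM (adjusted p = 0.0510), and C1qb, C1qc and Msr1, a scavenger receptor (each adjusted p = 0.0550). The defining markers Csf1r (log2 -0.57, adjusted p = 0.344) and Adgre1 (-0.40, adjusted p = 0.285) did not pass, and Mertk stood at 1.24 CPM or less in all 4 libraries. The summed level of the macrophage list was 296 to 440 CPM of total counts in H2R deficient and 626 to 673 CPM in wild-type libraries. Csf1r and Adgre1 made up most of that sum in each library. Of 12 monocyte markers 1 fell, Ace, and the median was -1.19. 7 of them had a lower and 2 a higher value at an unadjusted p under 0.05, beside 10.7% and 7.95% of all genes. Among them Ccr2, the receptor for Ccl2, was at 5.26 and 3.83 against 18.3 and 10.3 CPM, while Ly6c2, which marks classical monocytes, was at 214 and 225 against 137 and 126 CPM (adjusted p = 0.0586 and 0.164). Among 12 measured markers of large peritoneal macrophages Fn1 alone passed. The summed level of that list, dominated by Thbs1 and Lrg1, was higher in H2R deficient libraries. It was 20310 and 25930 CPM of total counts there and 18240 and 20200 CPM in wild-type libraries. Without Thbs1 and Lrg1 the sum was 119 and 162 CPM in H2R deficient and 550 and 612 CPM in wild-type libraries. Most of that sum is Fn1, so it largely repeats the fall of Fn1. Gata6, which defines those macrophages, was at 0.13 and 0.18 CPM in H2R deficient libraries and at 0 and 1.54 CPM in wild-type libraries.

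Eosinophil markers were also lower in both H2R deficient libraries. Siglecf, a sialic acid-binding receptor best known from eosinophils, was at 14.1 and 12.8 CPM against 38.8 and 32.7 CPM and fell 2.66-fold (log2 -1.41, SE 0.21, adjusted p = 0.0458). All 8 measured eosinophil markers had negative log2 fold changes, beside 53.1% of all genes, with a median of -1.65. At an unadjusted p under 0.05, 7 were lower, beside 10.7% of all genes. Ear2 and Ear6 (ribonucleases) and Ccr3 (the eotaxin receptor) were among the 7. The summed level was 29.0 and 33.4 CPM of total counts in H2R deficient and 92.0 and 107 CPM in wild-type libraries. Epx, the eosinophil peroxidase, had no count in 3 of the 4 libraries and 5 counts in wild-type library 4. Ccr3 stood at 9.05 to 11.6 against 21.7 to 28.8 CPM. In RNA from bulk samples, fewer cells of a type and less RNA per cell cannot be told apart, and the part of other cells in the falls of Fn1, Apoe and Siglecf was not tested.

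**Figure D3:**
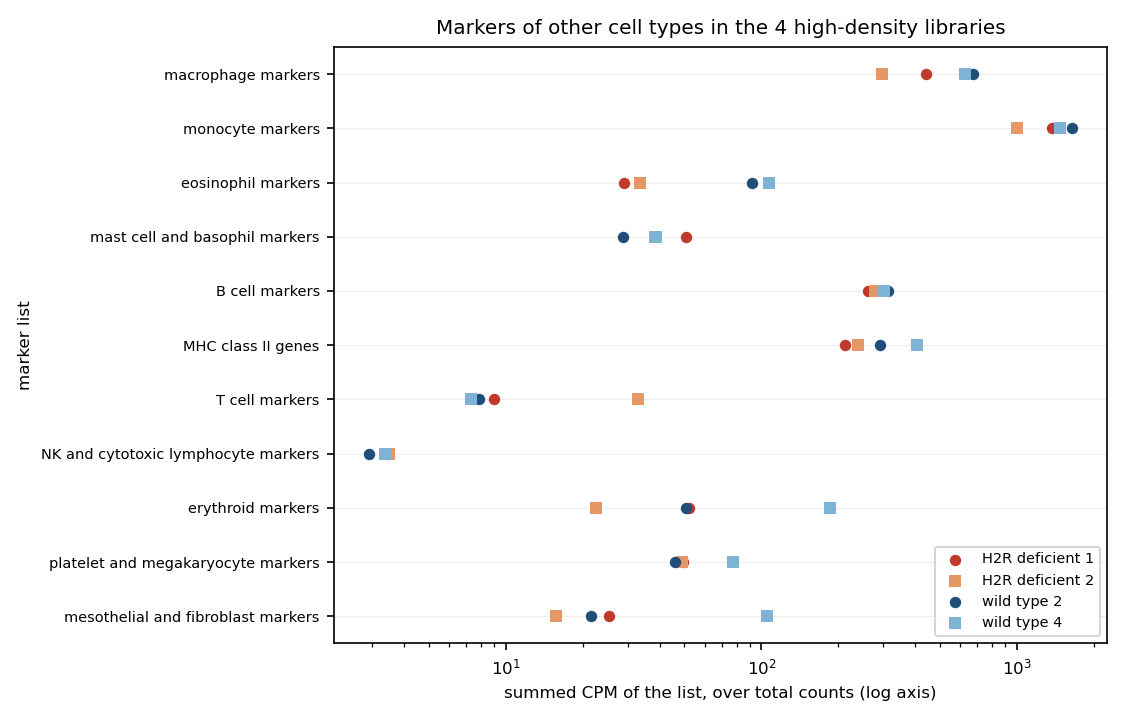
Summed CPM over total counts (log axis) of 11 marker lists of other cell types in the 4 high-density libraries. Eosinophil sums lie at 29.0 and 33.4 in H2R deficient and at 92.0 and 107 in wild-type libraries, T cell sums stand out in H2R deficient library 2 (33.0), and erythroid and mesothelial sums in wild-type library 4 (186 and 105).

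The remaining genes that fell have varied roles. S100a4, a calcium-binding protein, held 9.40 and 9.76 against 25.2 and 31.0 CPM (log2 -1.55, adjusted p = 0.0374). Ptpro (log2 -2.03) and Ptprs (-1.35), both receptor tyrosine phosphatases, and Plxnb2, a semaphorin receptor (-1.58), fell. Ccdc50, a ubiquitin-binding adaptor, was at 4.50 and 6.00 against 18.9 and 24.2 CPM (log2 -2.04). Emp1, a membrane protein, Slc12a4, a potassium-chloride cotransporter, Gpd1l, a relative of glycerol-3-phosphate dehydrogenase, Hivep3, a zinc finger protein, Fbxo31, a substrate adaptor of a ubiquitin ligase, and the unclassified transcript Gm37689 fell as well, with log2 fold changes of -1.73, -1.43, -1.35, -2.12, -2.01 and -2.23. Fbxo31 varied within wild type, at 20.3 and 10.7 CPM.

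Rhou and Styk1 rose at very different levels. Rhou (chromosome 8, 123653929 to 123663884), which acts on cell shape and adhesion, held 96.8 and 111 CPM in H2R deficient and 30.8 and 38.8 CPM in wild-type libraries (2.98-fold, log2 1.58, SE 0.24, adjusted p = 0.0446). Styk1 (chromosome 6, 131299142 to 131353597) held 107 and 114 counts, or 6.25 and 7.28 CPM, against 13 and 15 counts, or 0.77 and 0.89 CPM (8.14-fold, log2 3.02, SE 0.45, adjusted p = 0.0446). Neither gene's values overlapped, as in all 31 genes past the threshold. Lin28a, an RNA-binding protein, lay just outside with 56.2 and 70.8 against 19.6 and 21.3 CPM (log2 1.64, adjusted p = 0.0510), as did Dusp3, a phosphatase, on the lower side (log2 -1.53, adjusted p = 0.0504).

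Because the receptor signals through cyclic AMP, the promoters of the 31 genes were searched for the cyclic AMP response element, TGACGTCA, and its 5-letter part TGACG, on both strands from 250 bases before to 50 after the start. RefSeq promoters (GRCm38.p6) existed for 24 of the 28 genes that fell, 1 of the 3 that rose and 10487 tested genes. The element stood in 1 of the 24 (4.17%), Ptprs, and in 362 of all (3.45%). TGACG, which the element contains, stood in 5 of the 24 (20.8%) and in 34.2% of all. The Ptprs promoter (GRCm38.p6, chr17:56476431-56476730, minus strand, 5′ to 3′) is shown as the one example among the 31, with the element in capitals.
Ptprs: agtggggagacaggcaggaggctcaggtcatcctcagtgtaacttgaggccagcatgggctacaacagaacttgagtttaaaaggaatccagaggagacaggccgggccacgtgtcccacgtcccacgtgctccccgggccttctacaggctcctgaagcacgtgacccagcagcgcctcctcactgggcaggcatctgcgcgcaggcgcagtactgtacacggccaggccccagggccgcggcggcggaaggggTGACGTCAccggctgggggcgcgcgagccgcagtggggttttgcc
A match describes these letters only and is no evidence of binding.

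Cyclic AMP genes themselves showed no member past the threshold. Of 26 measured adenylyl cyclases, kinase subunits and phosphodiesterases 0 passed, with a median of -0.11, which was -0.36 without H2R deficient library 2 and 0.04 without wild-type library 4. Of 8 other Gs-coupled receptors 0 passed. The adenosine receptor gene Adora2b was at 98.0 and 74.5 against 31.5 and 57.2 CPM (log2 0.96, adjusted p = 0.153) and the prostacyclin receptor gene Ptgir at 34.1 and 27.6 against 15.2 and 21.3 CPM (0.76, adjusted p = 0.164). Of 28 cyclic AMP response genes 20 had negative values, 7 of them at an unadjusted p under 0.05, and the median was -0.35. Over all genes 53.1% were negative, 10.7% were lower at that p and the median was -0.05. The nuclear receptor Nr4a2 was at 0.99 and 1.28 against 12.6 and 3.19 CPM (log2 -2.80, adjusted p = 0.0971). Nr4a1 was at 508 and 398 against 1051 and 663 CPM and Ptgs2, the inducible cyclooxygenase, at 903 and 841 against 2109 and 1344 CPM (adjusted p = 0.120 and 0.115). In each of these 3 genes wild-type library 2 was the highest library. Without that library the list's median was -0.08, with 16 of 28 negative.

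The same library led the immediate-early genes, which respond within minutes to stimulation and to handling. This list shares members with the cyclic AMP response genes, Fos, Fosb, Junb, Nr4a1 and Nr4a2 among them, so the lists are not separate observations. Of 29 measured, 0 passed, 23 had negative values and the median was -0.38. That median was -0.06, with 18 of 29 negative, without wild-type library 2 and -0.61 without wild-type library 4. Wild-type library 2 was the highest of the 4 in 21 of the 29. Fosb was at 214 CPM there and at 22.5 to 40.1 CPM in the other 3 libraries, and its log2 fold change turned from negative to 0.42 without that library. Jun went the other way, with 639 and 494 CPM in H2R deficient and 338 and 266 CPM in wild-type libraries (log2 0.91, adjusted p = 0.109). Whether the state of that one library bears on the falls was not tested. Without it the log2 fold changes of the 28 genes ran from -2.54 to -1.10. Those genes were picked with that library included and the other libraries are reused, so the range does not settle the question.

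Genes for inflammatory mediators held none past the threshold. The negative medians of the chemokine, eicosanoid and cytokine lists were smaller in size without wild-type library 4, and only that of the cytokines vanished. Of 21 measured chemokine genes 19 had negative values, with a median of -0.52. Ccl2, which draws monocytes, was at 39.0 and 42.6 against 78.6 and 74.2 CPM (log2 -0.91, adjusted p = 0.0648) and Ccl7 at 29.0 and 35.9 against 54.3 and 74.3 CPM (adjusted p = 0.0962). Cxcl2, among the genes with the most counts, was at 15840 and 17190 against 19700 and 22100 CPM (-0.34, adjusted p = 0.370). Wild-type library 4 was the highest in 17 of the 21, and without it the median was -0.13 with 13 of 21 negative (-0.87 without wild-type library 2). Of 15 eicosanoid synthesis genes 0 passed, with a median of -0.62 (-0.26 without wild-type library 4). Tbxas1, thromboxane synthase, was at 12.2 and 12.3 against 25.6 and 22.3 CPM (adjusted p = 0.129). Of 23 cytokine genes 0 passed, with a median of -0.35 that went to 0 without wild-type library 4 (11 of 23 negative). Il1b was at 6330 and 5477 against 10630 and 6199 CPM (-0.51, adjusted p = 0.401).

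**Figure D4:**
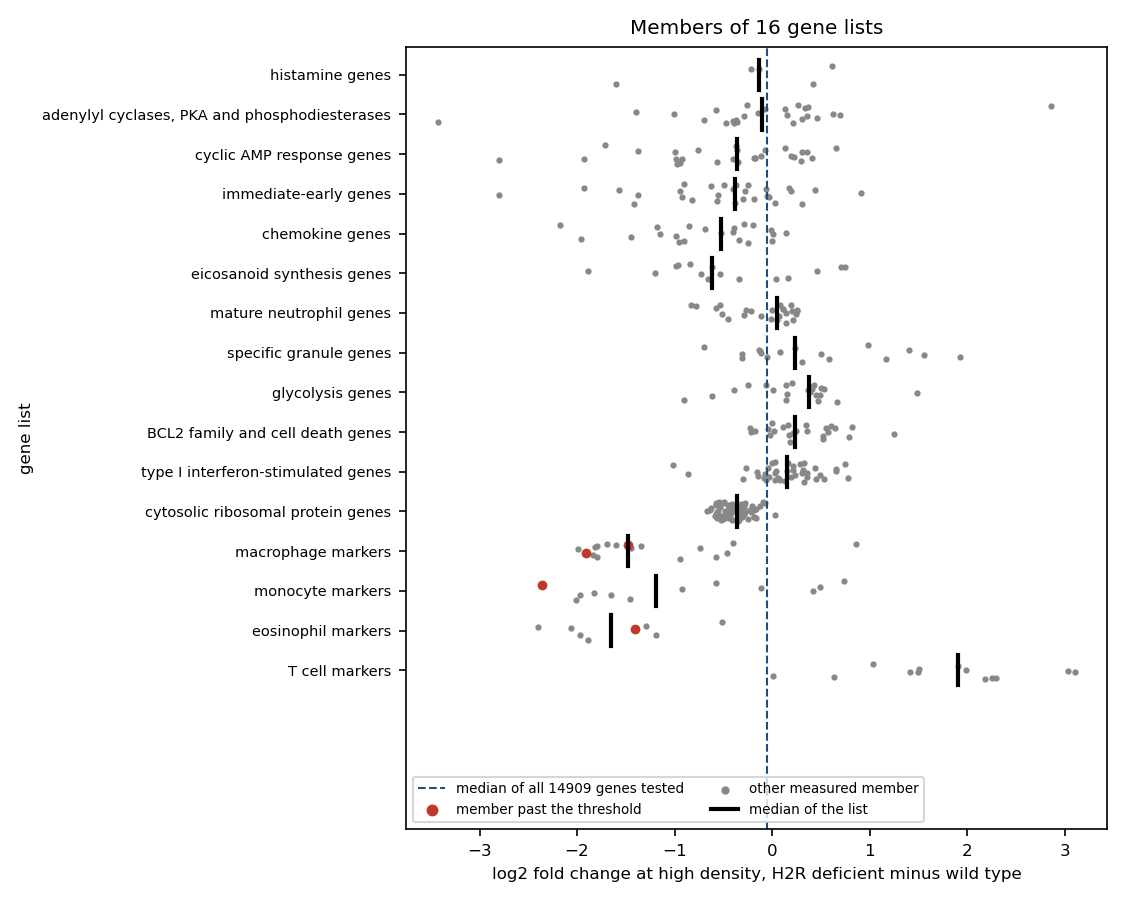
Log2 fold change at high density (H2R deficient minus wild type) of each measured member (grey; red where past the threshold) of 16 gene lists, with list medians (black bars) and the median of all genes (dashed line, -0.05). Medians of macrophage (-1.48), monocyte (-1.19) and eosinophil (-1.65) markers lie to the left and that of T cell markers (1.90) to the right.

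No gene of the neutrophil lists other than Itga4 passed. Of 25 mature neutrophil genes 0 passed, 11 had negative values and the median was 0.05, and it was negative with scaling by total counts (-0.02), without H2R deficient library 2 (-0.04) and without wild-type library 2 (-0.07). Cxcr2, the chemokine receptor of mature neutrophils, was at 2639 and 2541 against 2433 and 1908 CPM (log2 0.25, adjusted p = 0.598), and Csf3r, the G-CSF receptor, at 3251 and 2268 against 5043 and 2936 CPM (-0.53, adjusted p = 0.349). Among 17 specific granule genes 0 passed, 7 had negative values and the median was 0.23, which turned sign without H2R deficient library 1. Groups did not overlap in 8 of the 17 on the higher and 2 on the lower side, beside 21.1% and 25.8% of all genes. The granule protein gene Ltf, lactoferrin, was at 280 and 512 against 79.9 and 129 CPM (1.92, adjusted p = 0.0869) and Camp, cathelicidin, at 21.6 and 40.5 against 7.42 and 13.6 CPM (1.56, adjusted p = 0.156), with no overlap in either. Wild-type library 2 was the lowest library in 11 of the 17. The 10 genes with the most counts, S100a9, Thbs1 and Fth1 first, had log2 fold changes between -0.46 and 0.42 and a lowest adjusted p of 0.319.

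Metabolic and survival lists held no gene past the threshold either. Of 22 glycolysis genes 5 had negative values and the median was 0.37 (0.21 without wild-type library 2). Hk3, a hexokinase, was at 790 and 728 against 512 and 535 CPM (log2 0.53, adjusted p = 0.149), and Gapdh at 2104 and 2077 against 1472 and 1588 CPM (adjusted p = 0.220). Of 24 BCL2 family and cell death genes 7 were higher at an unadjusted p under 0.05 and none lower, beside 7.95% and 10.7% of all genes. Casp8, the initiator caspase of death receptors, was at 119 and 98.2 against 57.8 and 65.1 CPM (0.82, adjusted p = 0.0938). Of 82 cytosolic ribosomal protein genes 81 had negative values, beside 53.1% of all genes, with a median of -0.36 at high density and 0.77 at low density. Wild-type library 4 was the highest high-density library in 69 of the 82 and H2R deficient library 1 the lowest in 80. The high-density median was -0.24 without H2R deficient library 1 and -0.52 without H2R deficient library 2. Interferon-stimulated genes had a median of 0.16 over 40 measured, with 0 past the threshold, and that median was 0.78 without wild-type library 2 and -0.23 without wild-type library 4.

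Low-density neutrophils of the same genotypes were compared in the same way. The low-density libraries held more RNA of other cells, unequally by genotype. B cell marker sums were 1921 and 2161 CPM of total counts in H2R deficient and 1055 and 586 CPM in wild-type low-density libraries, beside 261 to 312 CPM at high density. MHC class II sums were 2933 and 3077 against 1532 and 854 CPM, and dendritic cell marker sums 726 and 962 against 580 and 243 CPM. Their part in the low-density values below was not tested. At low density 0 genes passed in either direction (0% each), with 3128 at an unadjusted p under 0.05, a lowest adjusted p of 0.0868 and 870 called by DESeq2. The difference between the genotype effects at high and low density passed in 0 genes (0%), with 3150 at an unadjusted p under 0.05, a lowest adjusted p of 0.0906 and 946 called by DESeq2. With scaling by total counts that difference passed in 635 genes, and the median of all genes in it moved from -0.04 to -0.38. With same-numbered libraries of a genotype as a replicate block, it passed in 28 genes (16 higher, 12 lower). Of the 28 genes that fell at high density, 20 had a negative value at low density as well, with a median of -0.33. Over all genes the low-density median was 0.05. Without adjustment the difference had a p under 0.05 for 29 of the 31, beside 3150 of all 14909 genes. The 31 were picked by low p from high-density values that enter the difference, so this is no independent support.

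Individual genes spanned a wide range at low density. Siglecf and Selenop had nearly equal values in both fractions: Siglecf -1.41 at high and -1.47 at low density (SE 0.21 each), Selenop -1.73 (SE 0.25) and -1.54 (SE 0.24). Siglecf stood at 5.32 and 7.32 CPM in H2R deficient and 16.1 and 18.9 CPM in wild-type low-density libraries. Fn1 was intermediate at low density, at 444 and 481 against 853 and 675 CPM (-0.72, SE 0.24, adjusted p = 0.153). Vcan held 81.9 and 81.1 against 125 and 115 CPM (-0.56, adjusted p = 0.119). Itgb8 and Ccdc50 were near or above 0 (0.04 and 0.23). Gpd1l was reversed in sign, at 19.7 and 17.7 against 9.28 and 9.44 CPM (SE of the log2 fold change 0.19, adjusted p = 0.104), and the difference between fractions was -2.35 (SE 0.28, adjusted p = 0.0906). Rhou, higher at high density, stood at -0.14 at low density.

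**Figure D5:**
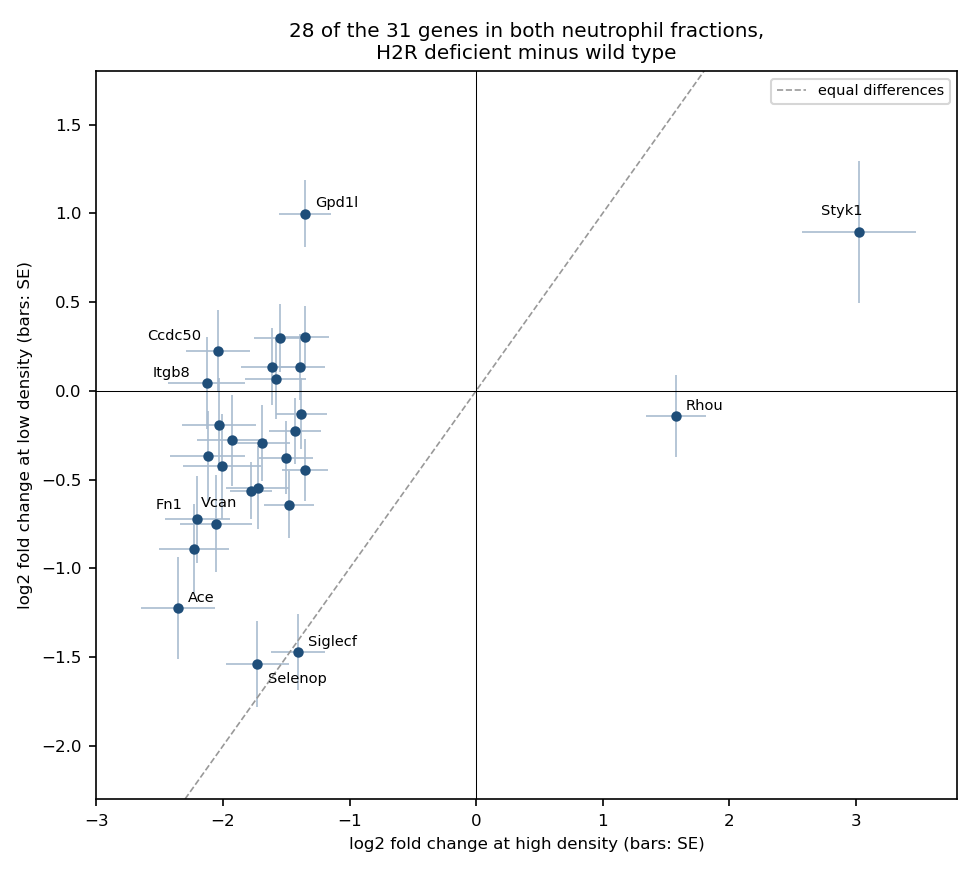
Log2 fold change (H2R deficient minus wild type) at low density against that at high density for 28 of the 31 genes past the threshold at high density, with SE bars and a dashed line of equal differences. Siglecf and Selenop lie near the line, Vcan, Fn1 and Ace between the line and 0, and Gpd1l on the other side of 0 at low density.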

How the data were processed

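The authors deposited 1 table per library with counts of reads per gene; per the file headers these have the featureCounts layout and carry no normalization. GRCm38 is the build in the submitters' processing notes, which also list Subread 1.5.2 (with featureCounts), STAR 2.5.2b, Trimmomatic 0.36 and bcl2fastq 2.17.1.14. The annotation release and strand setting were not given in the sources used here. Whether reads of overlapping genes on opposite strands were told apart is therefore unknown. Of 49315 identifiers, 48970 were matched to symbols and coordinates by identifier in GENCODE M21.

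Counts of all 8 libraries were filtered with filterByExpr, scaled by TMM and fitted with edgeR 4.0.16 (R 4.3.3), using the robust quasi-likelihood model with 1 mean per group and 4 residual degrees of freedom (common biological coefficient of variation 0.236). The low-density groups thus share in the estimate of the spread. P-values were adjusted by Benjamini-Hochberg over 14909 genes, with a threshold of 0.05. Library groups came from the labels, which name no batch. Single-gene CPM values are TMM-scaled (factors 0.742 to 0.808 at high density) and summed lists are over total counts. The fit was tested on simulated data. Gene lists were described by counts and medians, with no set test.

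Genes named are the histamine genes, the 10 largest rises and falls and the 10 of highest CPM among genes past the threshold (for rises and falls, a mean of at least 5 CPM in the higher genotype and no overlap). Other genes past the threshold were added, and 3 of the 31 are not reported here. Members of lists, and genes just outside the threshold, were picked after their values were seen. The comparison and the lists were chosen with earlier results of these data known. Alternatives were other scalings and filters, DESeq2 1.42.0, limma-voom (limma 3.58.1), the 4 high-density libraries alone and leaving out each library.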

Additional observations from a re-analysis of the deposited data

How the results depend on the processing

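The 31 genes at high density became 73 with scaling by total counts (6 higher, 67 lower), 1095 without the filter on low counts (332 higher, 763 lower), 677 with DESeq2 (278 higher, 399 lower), 2 with limma-voom and 0 with the 4 high-density libraries alone. Leaving out 1 library at a time gave 0 to 40. A threshold of 0.1 on the adjusted p, chosen after seeing the data, gave 270 (82 higher, 188 lower). Other size factors (23) and a filter of 1 CPM in at least 2 libraries (28) stayed within 1.5 times. At low density the count of 0 became 1360 without the filter and 870 with DESeq2, and 0 to 121 with 1 library left out, the largest without wild-type low-density library 2. The difference between fractions went from 0 to 635 with total counts (13 higher, 622 lower), 1210 without the filter and 946 with DESeq2, and 0 to 3 with 1 library left out. Near Hrh2 the 0 became 1 with total counts, 12 without the filter and 10 with DESeq2, and 0 to 1 with 1 library left out. The cause was not tested. Total-count scaling moved the median of all genes from -0.05 to -0.12 at high density. Of the genes given with a fold change or p at high density, 3 turned sign: Fosb (0.42 without wild-type high-density library 2, and -2.78 to 0.42 over all left-out libraries), Kit (-0.29 without the first dense H2R deficient library, and -0.29 to 0.38 over all) and Aldh7a1, at 0.09 with the second dense H2R deficient library left out and 0.39 with wild-type high-density library 4 left out, with -0.52 to 0.39 over all left-out libraries. No paired analysis was possible because the compared groups share 1 replicate number only. With library number within genotype as a replicate block, the difference between fractions passed in 28 genes. Deviations of same-numbered libraries correlated at 0.382 in H2R deficient and 0.0305 in wild type. The mitochondrial gene mt-Nd3 had 0 counts in both wild-type libraries numbered 4, and 77 (high density) and 58 (low density) in those numbered 2. Mesothelial and fibroblast sums at high and low density were 105 and 348 CPM in wild type 4 and 21.5 and 83.8 CPM in wild type 2. They were 25.3 and 468 CPM in H2R deficient 1 and 15.7 and 75.8 CPM in H2R deficient 2. Whether same-numbered libraries share a source was not tested, and the main fit treats all libraries as independent. With 2 libraries a group, no exact test of a single gene could pass. Genes under 1 CPM had a median SE of 0.77 and none of 4147 passed, so differences there were mostly not detectable.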

Other observations

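Several lists differed between single libraries rather than between genotypes. T cell markers were highest in H2R deficient library 2 for all 13 measured members, with a summed level of 33.0 CPM of total counts there and 7.34 to 8.97 CPM in the other 3 libraries. Their median log2 fold change was 1.90 (0.30 without that library), and none passed. Cd8a, a coreceptor of cytotoxic T cells, was at 4.28 CPM in that library and at 0.24 to 0.41 CPM in the others.

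Wild-type library 4 held the highest value of all 6 erythroid and all 12 mesothelial and fibroblast markers measured. Erythroid sums were 186 CPM there and 22.5 to 52.0 CPM elsewhere, and mesothelial sums 105 CPM and 15.7 to 25.3 CPM. The collagen gene Col3a1 stood at 37.3 CPM in that library and at 0.57 to 5.72 CPM in the other 3. The tropomyosin-related gene Tpm3-rs7 held 293 CPM there and 4.95 to 7.02 CPM in the others.

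Mast cell and basophil genes went the other way from the eosinophil genes. All 9 measured were higher in H2R deficient libraries on average, with a median log2 fold change of 1.37 and none past the threshold. The median was 0.87 without wild-type library 2, which was the lowest library in 7 of the 9, and 2.41 without wild-type library 4. Cma1, a mast cell chymase, was at 6.42 and 7.40 CPM in H2R deficient and 1.30 and 3.78 CPM in wild-type libraries (adjusted p = 0.210). Kit, the stem cell factor receptor, was at 42.5 and 26.9 against 31.8 and 33.6 CPM (adjusted p = 0.873), a difference that turned negative without H2R deficient library 1.

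Cd101, a surface protein of mature neutrophils, had a log2 fold change of -3.22 without passing (adjusted p = 0.0984), at 8.41 and 10.3 CPM in H2R deficient and 145 and 30.4 CPM in wild-type libraries. Clec7a, the beta-glucan receptor dectin-1, was at 726 and 1418 against 3350 and 2473 CPM (log2 -1.44, adjusted p = 0.123). The X-inactivation transcript Xist was at 71.1 CPM of total counts in wild-type library 2 and 202 to 226 CPM in the other 3 libraries.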
